A study of Rattus norvegicus with 28 samples.

Results

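Grin2b, Grin2d and Grin3a encode subunits of the NMDA receptor, and 5 of the 228 features of a custom rat array were annotated to these 3 genes. A feature is a printed oligonucleotide that yields 1 value on each array, and every feature annotated to a member gene was taken. Feature 169 stood for Grin2b, features 167 and 171 for Grin2d, and features 180 and 228 for Grin3a. The array also carried 6 features of other NMDA subunits, which were 4 for Grin1, 1 for Grin2c and 1 for Grin3b.

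The arrays were made to study long-lasting effects of an early injury on pain pathways, and 28 of them were analysed here, each hybridised with 2 RNA samples. In channel 1 was RNA of a male rat that had received an injection into the sole of the left hindpaw on postnatal day 3, and in channel 2 RNA of the same region from an animal without injection. The injection was carrageenan, an algal polysaccharide that causes inflammation (0.25% in 0.9% saline, 1 µl per g), or saline, for which the labels give no volume; weaning was on day 21, and the rats were raised to day 59. In PAG, the usual short form for the periaqueductal grey of the midbrain, carrageenan and saline were each represented by 5 arrays. In RVM, usually the rostral ventromedial medulla, carrageenan had 5 arrays and saline 4. The lumbar dorsal horn (LDH) of carrageenan-injected animals had 5 arrays of the left and 4 of the right side, each set against the same side of uninjected animals. The dorsal horn had no saline arrays, so its 2 groups compare the side of the injected paw with the opposite side.

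NMDA receptors are glutamate-gated cation channels that pass calcium, need glycine or D-serine as a coagonist and are blocked by magnesium at rest. Each contains Grin1 subunits, which bind the coagonist, with Grin2 subunits, which bind glutamate and set how fast the channel closes, or Grin3 subunits, which bind glycine and lower the calcium flow. Grin2b and Grin2d are both known as subunits of the young brain, Grin2d mainly in midbrain, brain stem and spinal cord, and Grin3a is likewise known for its high level early after birth. In pain research the receptor is known for the lasting increase in excitability of dorsal horn neurons after injury, and PAG and RVM are relays of the pathway that descends from the brain to the dorsal horn.

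All values below are log2 ratios of injected over uninjected, where 0 means equal signal and a value below 0 a lower signal in the injected animal. The deposited table gives neither the log base, the centring nor the direction; base 2 was inferred from the range of values (-13.245 to 10.459), and injected over uninjected was assumed from the order of the channels. The labels place the injected animal in the same channel and dye on every array, so the orientation is constant, but they do not say which channel was divided by which; were it the other way, every sign below would turn. With no dye swap, a dye effect of a feature cannot be told apart from a difference between injected and uninjected animals. An exact 0, found in 3566 of 6384 cells (55.9%), was read as not measured. Arrays had ratios for 7 to 195 features: 86 to 181 in PAG carrageenan, 33 to 95 in PAG saline, 29 to 110 in RVM carrageenan, 100 to 195 in RVM saline, 65 to 168 in the left and 7 to 100 in the right LDH. Array medians lay between -0.061 and 0.083. Among 348 pairs of arrays that shared at least 15 features, r across features was positive in 311 (median 0.266), below -0.3 in 7 and at its lowest -0.511; no array was turned, since the labels give all of them the same dye orientation. The arrays held no feature for any of the neuron or glial and vascular markers looked up, and ratios carry no levels, so the labelled regions could not be checked against markers. Nothing in the labels states that the arrays of a group were separate animals or that each had a control animal of its own, so the p-values cover array-to-array spread, part of which may be technical. The labels also do not say whether the regions, or the 2 sides of LDH, came from the same rats. Comparisons between regions or sides took arrays as independent.

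The 5 member features differed first in how often they were measured. Grin2b feature 169 had a ratio on 27 of 28 arrays, Grin2d feature 171 on 25, Grin2d feature 167 on 17, Grin3a feature 180 on 9 and Grin3a feature 228 on 6. Both Grin2d features had ratios on all 10 PAG arrays, whereas feature 167 had none on the 5 RVM carrageenan and the 4 right LDH arrays. Both Grin3a features were missing from every PAG saline and every LDH right array. The plot of member ratios by array shows these gaps as well as the values.

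**Figure D1:**
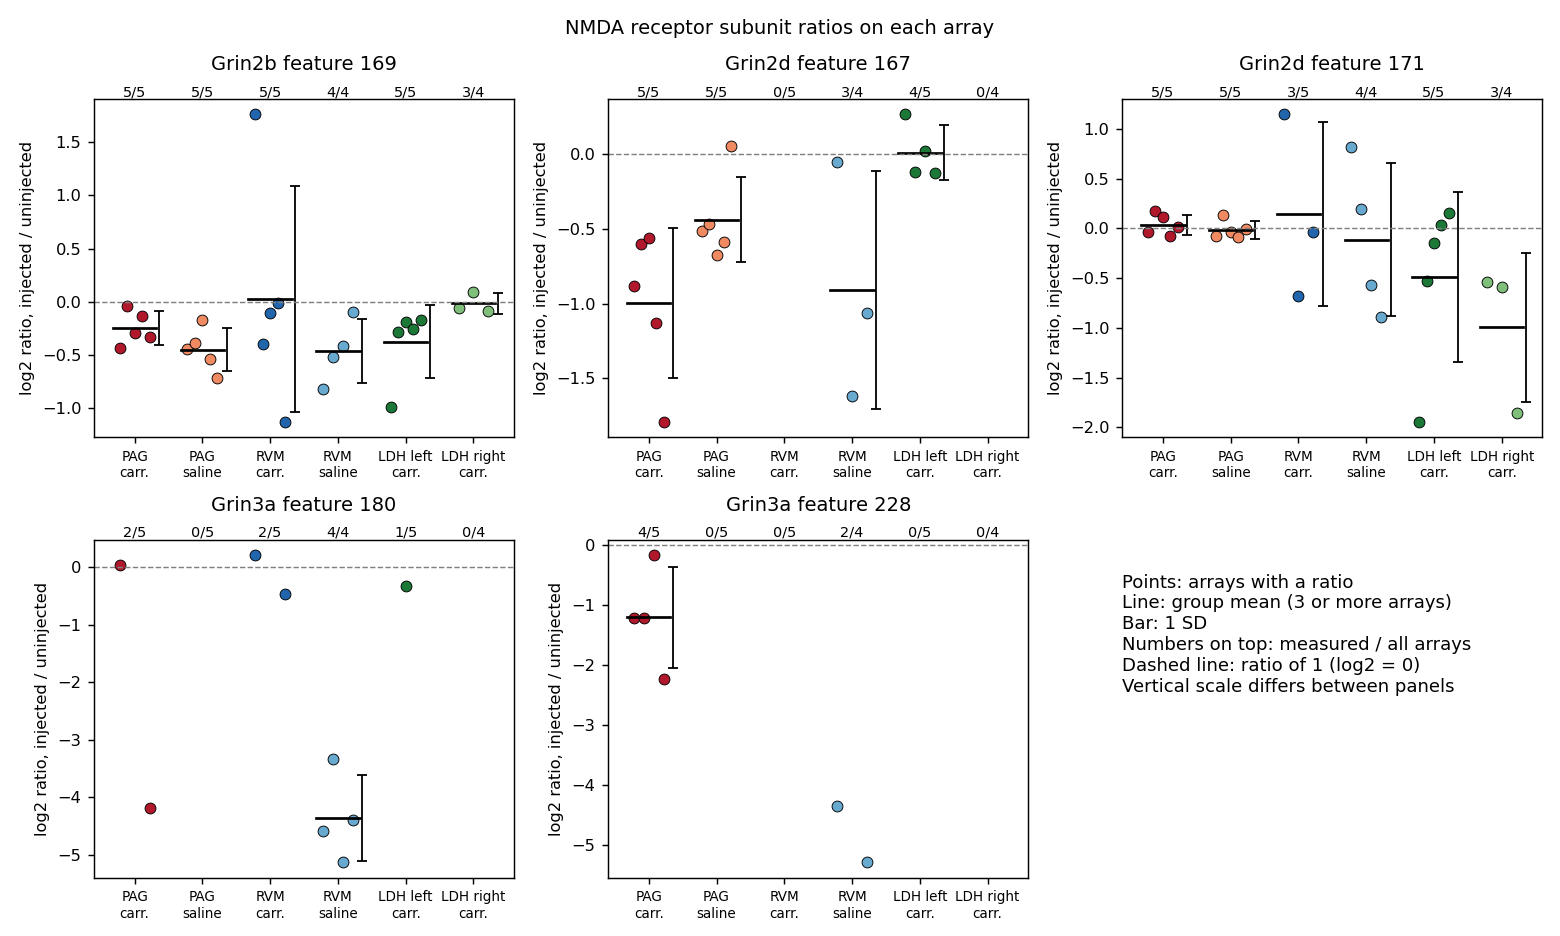
Log2 ratio of injected over uninjected (vertical axis, scale differing between panels) for the 5 member features on every array that measured them, by group (horizontal axis); points are arrays, lines group means where at least 3 arrays were measured, bars 1 SD, and the numbers on top give measured over all arrays. Grin2b feature 169 lies below 0 on 25 of 27 arrays, the PAG ratios of Grin2d feature 167 lie below those of Grin2d feature 171 on 9 of 10 arrays, and Grin3a feature 180 lies between -5.137 and -3.345 on the 4 RVM saline arrays.

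Grin2b, the subunit that carries the glutamate site in many receptors of young neurons, had ratios below 0 on 25 of the 27 arrays that measured it, although its mean passed the test in no group. Its ratios were -0.431, -0.039, -0.295, -0.138 and -0.326 in PAG carrageenan and -0.442, -0.386, -0.168, -0.539 and -0.717 in PAG saline. All 10 PAG arrays were thus below 0, and the 2 groups overlapped. Of 22 features measured on all 10 PAG arrays, 2 (9.09%) were below 0 on every one, Grin2b and the kainate receptor subunit Grik3 (feature 88), and 1, the neuropeptide precursor Nts (feature 184), was above 0 on every one. Group means were -0.25 ± 0.16 (SD, n = 5) after carrageenan and -0.45 ± 0.20 (SD, n = 5) after saline, which are 0.843 and 0.732 of the control's signal. In whole tissue, fewer cells of a type and less RNA per cell cannot be told apart.

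In RVM, the carrageenan ratios of Grin2b were 1.760, -0.397, -0.101, -0.012 and -1.126, and the saline ratios were -0.822, -0.518, -0.417 and -0.093. The carrageenan group held both the highest and the lowest ratio of Grin2b in the series and spanned the whole saline group. Its mean of 0.02 ± 1.06 (SD, n = 5) was -0.41 without array 1 and -0.02 with quantile normalization between arrays; the saline mean was -0.46 ± 0.30 (SD, n = 4). In the left LDH, Grin2b was at -0.986, -0.283, -0.189, -0.254 and -0.169. Array 1 stood below the other left arrays, which lay close together. In the right LDH it was at -0.057, 0.093 and -0.083 on the 3 arrays that measured it. These lay on both sides of 0 and above every left array, with a mean of -0.016 ± 0.095 (SD, n = 3; 0.019 with quantile normalization) against -0.38 ± 0.34 (SD, n = 5) on the left. The share of all features with such a gap between the sides was not counted.

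Grin2d, a subunit that gives slowly closing channels with weak magnesium block, gave different pictures through its 2 features. Feature 167 was at -0.886, -0.605, -0.562, -1.131 and -1.790 in PAG carrageenan, a mean of -0.99 ± 0.50 (SD, n = 5) or 0.502 of the control's signal. In PAG saline it was at -0.515, -0.469, -0.676, -0.588 and 0.051, a mean of -0.44 ± 0.29 (SD, n = 5). All 5 carrageenan arrays and 4 of 5 saline arrays were below 0, and the groups overlapped. In RVM saline, 3 arrays gave -0.051, -1.616 and -1.066 (mean -0.91 ± 0.79, SD, n = 3). In the left LDH, 4 arrays gave 0.264, -0.120, 0.017 and -0.125 (mean 0.009 ± 0.18, SD, n = 4), which was centred on 0.

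Feature 171 of the same gene stayed between -0.087 and 0.173 on every PAG array. Its ratios were -0.031, 0.173, 0.111, -0.072 and 0.013 after carrageenan (mean 0.039 ± 0.10, SD, n = 5) and -0.075, 0.140, -0.038, -0.087 and -0.001 after saline (mean -0.012 ± 0.092, SD, n = 5). Outside PAG it was far more variable. RVM carrageenan arrays gave 1.147, -0.679 and -0.034, and RVM saline arrays 0.815, 0.196, -0.570 and -0.889, each group with values on both sides of 0. The left LDH arrays gave -1.944, -0.531, -0.149, 0.032 and 0.153, and the right ones -0.534, -0.594 and -1.861. The means were -0.49 ± 0.85 (SD, n = 5) on the left and -0.996 ± 0.75 (SD, n = 3) on the right, and the 2 sides overlapped.

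Set against each other on the same array, the Grin2d features differed. Feature 167 was below feature 171 on 14 of the 17 arrays that measured both, by a mean of -0.52 ± 0.58 (SD, n = 17; two-sided sign-flip permutation p = 0.0021, adjusted p = 0.0189 over 9 pairs of member features). In PAG the difference was -0.73 ± 0.48 and below 0 on 9 of 10 arrays (exact permutation p = 0.00391), in RVM -0.70 on 3 arrays, all below 0 (exact permutation p = 0.25, the smallest 3 arrays can give). In LDH it was 0.13 ± 0.46, with 2 of 4 arrays on either side (exact permutation p = 0.75). The mean over regions therefore rests on PAG and RVM, and it was -0.16 when unmeasured values were kept as 0 (adjusted p = 0.522). Across the 17 arrays the features' ratios had r = 0.317 and Spearman's rho = 0.245, given as a description. The sources used here do not hold the oligonucleotides' sequences, so where each feature lies in the Grin2d transcript was not analysed here.

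**Figure D2:**
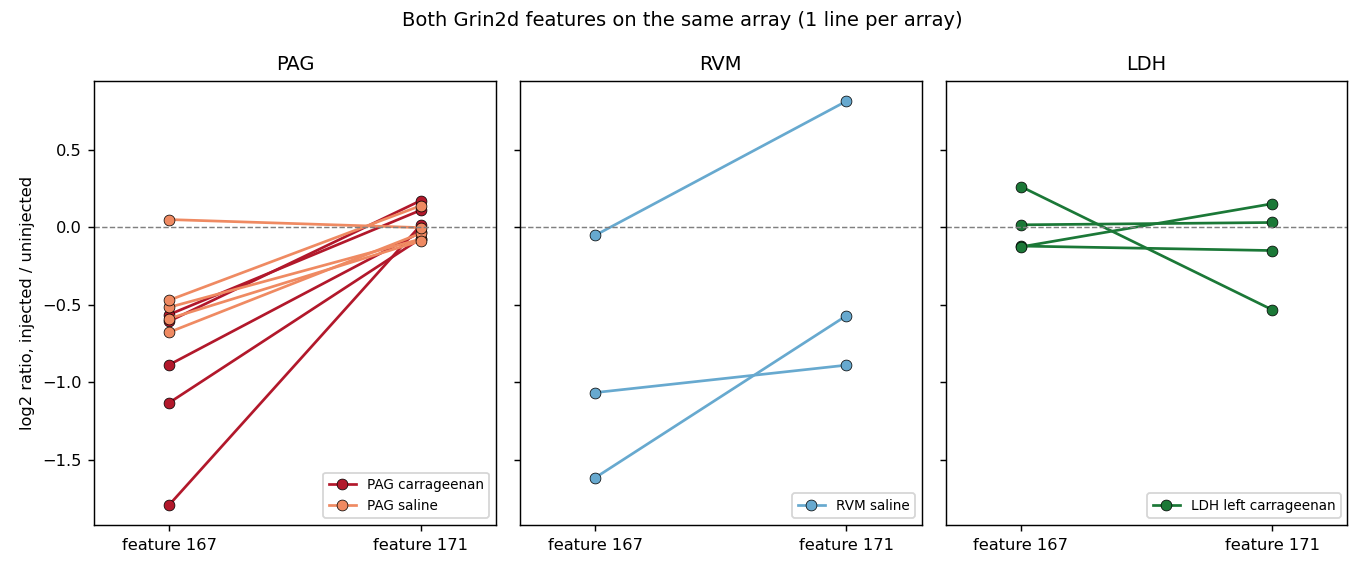
Log2 ratio of injected over uninjected (vertical axis) of Grin2d feature 167 and Grin2d feature 171, joined by 1 line per array that measured both, in PAG (10 arrays), RVM (3 saline arrays) and LDH (4 left arrays). In PAG 9 of 10 lines rise from feature 167 to feature 171, whereas in LDH the lines run both ways.

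Grin3a, which gives receptors with little calcium flow, was rarely measured but held the lowest ratios among the members. Feature 180 was at -4.586, -3.345, -5.137 and -4.397 on the 4 RVM saline arrays. The mean of -4.37 ± 0.75 (SD, n = 4) is 0.0485 of the control's signal, or 20.6-fold lower (higher, if the ratio was deposited the other way). Of 69 features with a ratio on all 4 RVM saline arrays it was the lowest (with the sign turned, the highest), followed by the metabotropic receptor Grm4 (feature 150) at -2.90 and Grik3 (feature 88) at -2.57, while Grin2b feature 169 and Grin2d feature 171 ranked 14 and 20 from the bottom. The plot of features ordered by their RVM saline mean shows this.

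**Figure D3:**
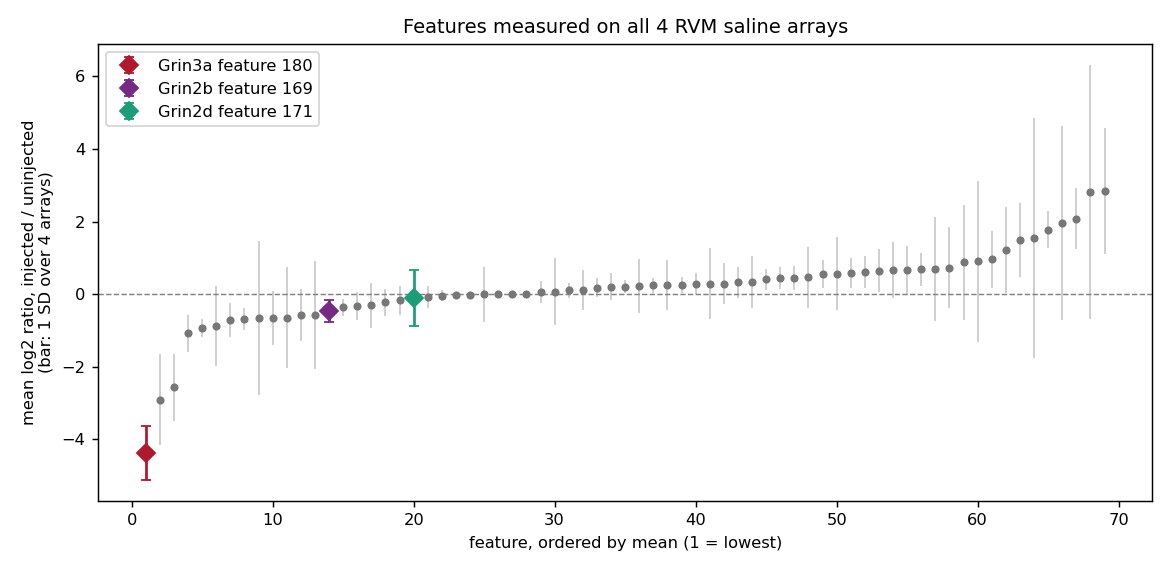
Mean log2 ratio of injected over uninjected (vertical axis) with 1 SD over 4 arrays for the 69 features measured on every RVM saline array, ordered from lowest to highest (horizontal axis, rank). Grin3a feature 180, at -4.37, is the lowest; Grin2b feature 169 and Grin2d feature 171 rank 14 and 20.

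The same Grin3a feature was near 0 elsewhere, with 1 exception. RVM carrageenan arrays 1 and 3 gave 0.214 and -0.470, PAG carrageenan arrays 2 and 4 gave 0.037 and -4.193, and left LDH array 2 gave -0.328. The 2 RVM groups thus did not overlap on the arrays that measured the feature, although PAG carrageenan array 4 was as low as the RVM saline arrays. How many of all features separated these RVM groups in the same way was not counted. Feature 228 of Grin3a was at -4.352 and -5.295 on RVM saline arrays 3 and 4, the only RVM arrays that measured it. In PAG carrageenan it was at -1.209, -1.217, -0.162 and -2.226 (mean -1.20 ± 0.84, SD, n = 4). Where both Grin3a features had a ratio in RVM saline, both were strongly low. In PAG carrageenan, features 180 and 228 were at -4.193 and -2.226 on array 4, and at 0.037 and -1.217 on array 2.

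With at least 3 measured arrays required in each group of a fit, neither Grin3a feature entered any main comparison. A fit of the RVM saline arrays alone took in 127 features, and Grin3a feature 180 was the only one called (0.787%), at -4.37 (95% interval -5.28 to -3.45; limma adjusted p = 0.0178). Leaving out saline array 1, 2, 3 or 4 gave -4.29, -4.71, -4.11 and -4.36 with adjusted p = 0.0546, 0.0149, 0.0809 and 0.112, so the call was kept only without array 2, while the feature had the smallest p in each of these fits. The difference between RVM carrageenan and saline could be fitted with at least 2 arrays a group and was 4.24 (95% interval 2.84 to 5.64; adjusted p = 0.0445, 1 of 98 features called, 1.02%), resting on 2 carrageenan arrays. An exact permutation of 4 saline against 2 carrageenan arrays gave p = 0.0667, the smallest this design allows. Arrays that measured feature 180 had ratios for 100 to 195 features (median 146), those that did not for 7 to 181 (median 86), and for feature 228 the ranges were 141 to 195 and 7 to 168. The part of the number of measured features in these results was not tested. Feature 228 in PAG carrageenan, fitted alone, was at -1.20 (95% interval -2.21 to -0.20; adjusted p = 0.17).

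The first question of the design was whether carrageenan and saline injections left different ratios in PAG. No member feature was called at an adjusted p (Benjamini-Hochberg over all features of a comparison, here and below) under 0.05, and neither was any of the other features tested (0% of 78; 10 had an unadjusted p under that threshold, none of them a member). Grin2d feature 167 came closest, at -0.56 (95% interval -1.12 to 0.01; adjusted p = 0.381), but this direction was not kept with quantile normalization (0.02). The carrageenan minus saline difference of Grin2b was 0.20 (95% interval -0.09 to 0.50; adjusted p = 0.432) and that of Grin2d feature 171 was 0.051 (95% interval -0.17 to 0.27; adjusted p = 0.831). The interval of Grin2d feature 171 was thus the narrowest of the 3, while that of feature 167 reached from no difference to a carrageenan ratio more than 1 log2 unit below the saline ratio.

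In RVM, carrageenan minus saline was 0.49 for Grin2b (95% interval -0.71 to 1.68; adjusted p = 0.85) and 0.26 for Grin2d feature 171 (95% interval -1.16 to 1.68; adjusted p = 0.879), and 0% of 56 features were called (4 had an unadjusted p under 0.05). Without RVM carrageenan array 1 the Grin2b difference was 0.05. In LDH, left minus right was -0.36 for Grin2b (95% interval -0.93 to 0.21; adjusted p = 0.854) and 0.51 for Grin2d feature 171 (95% interval -0.77 to 1.79; adjusted p = 0.854), with 0% of 29 features called and none at an unadjusted p under 0.05. The wide intervals leave differences of a log2 unit or more within range in RVM and, for feature 171, in LDH.

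Each group was next set against its uninjected controls. In PAG carrageenan Grin2d feature 167 was lower in injected animals, at -0.99 (95% interval -1.40 to -0.59; limma adjusted p = 0.0224; below 0 on 5 of 5 arrays), the smallest p of the comparison. This was 1 of 3 member features tested, against 11 of 78 features in all (14.1%), of which 4 were lower and 7 higher. Grin2b was at -0.25 (95% interval -0.46 to -0.03; adjusted p = 0.109) and Grin2d feature 171 at 0.04 (adjusted p = 0.769). The call of feature 167 was kept without any single PAG array (-1.10 to -0.80; adjusted p 0.0145 to 0.0425). It was lost with quantile normalization between arrays (-0.75; adjusted p = 0.149), in a fit of the carrageenan arrays alone (adjusted p = 0.136) and by exact sign-flip permutation (adjusted p = 0.232), where 5 arrays cannot give less than p = 0.0625.

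In PAG saline, Grin2b at -0.45 (95% interval -0.66 to -0.24; limma adjusted p = 0.0699; below 0 on 5 of 5 arrays) had the smallest p of 78 features, of which 0% were called (9 at an unadjusted p under 0.05, Grin2b and Grin2d feature 167 among them). It passed without saline array 3 (-0.52; adjusted p = 0.026; 1 of 62 features called), with quantile normalization (-0.78; adjusted p = 0.0434; 4 of 78 called) and among the 22 features measured on every PAG array (adjusted p = 0.00751; 1 of 22 called). These were the only 3 of 21 alternatives that called it. A fit of the saline arrays alone gave a limma adjusted p = 0.174, and with 1 array left out the limma adjusted p reached 0.181. Grin2d feature 167 was at -0.44 (95% interval -0.84 to -0.04; adjusted p = 0.383) and feature 171 at -0.01 (adjusted p = 0.964). The 2 PAG groups thus fell on different sides of the threshold for feature 167, but their difference itself, given above, was not called.

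In the other 4 groups no member that entered the main fits was called against uninjected controls; Grin3a, given above, did not enter them. In RVM carrageenan Grin2b was at 0.02 (adjusted p = 0.976) and Grin2d feature 171 at 0.14 (adjusted p = 0.976), where 1.79% of 56 features were called. In RVM saline they were at -0.46 (95% interval -1.35 to 0.43; adjusted p = 0.455) and -0.11 (adjusted p = 0.948), with 5.36% of 56 called. Left LDH gave -0.38 for Grin2b (95% interval -0.72 to -0.03; adjusted p = 0.275) and -0.49 for feature 171 (adjusted p = 0.394). Right LDH gave -0.016 (adjusted p = 0.938) and -0.996 (95% interval -2.01 to 0.01; adjusted p = 0.557), and on either side 0% of 29 features were called (5 on the left and 1 on the right at an unadjusted p under 0.05). The plot of estimates with intervals shows that the narrowest intervals of Grin2b and of Grin2d feature 171 were those of PAG.

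**Figure D4:**
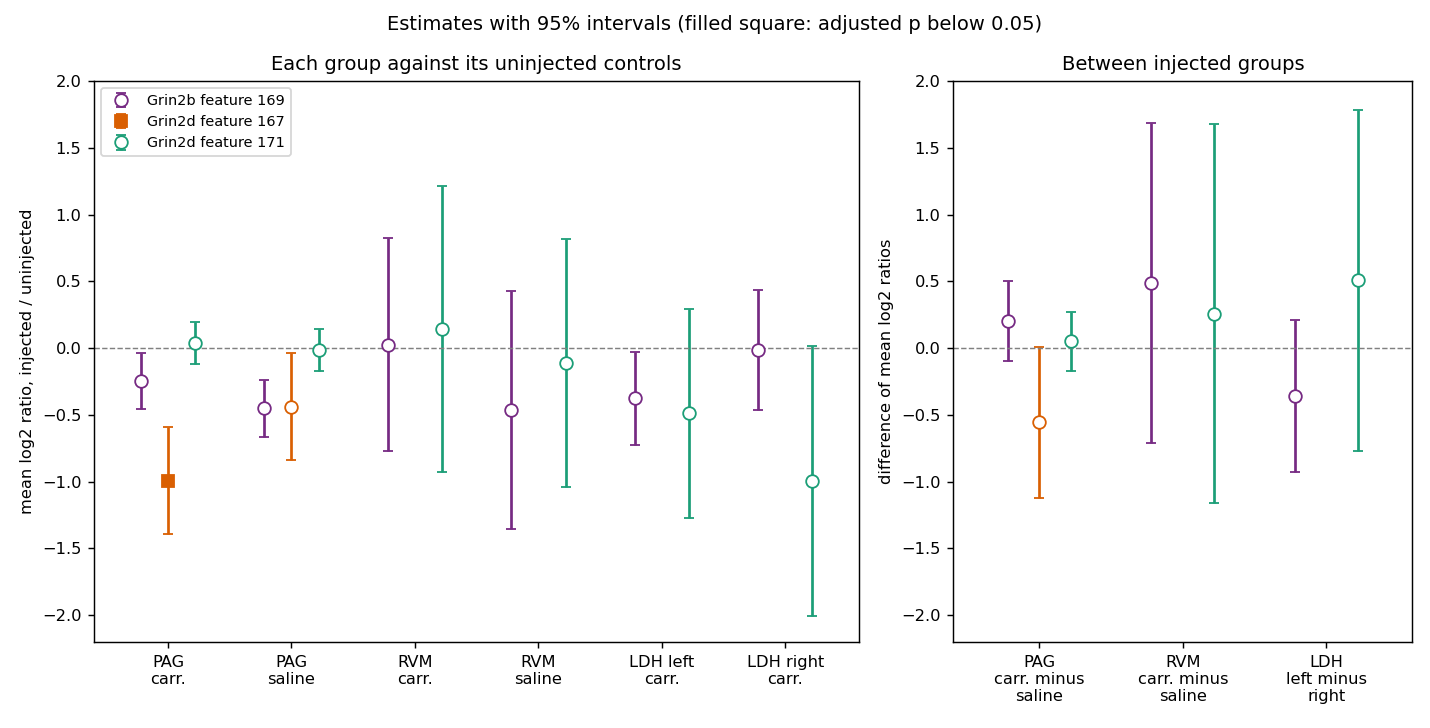
Mean log2 ratio of each group against its uninjected controls (left) and differences between injected groups (right), with 95% intervals from limma, for Grin2b feature 169 and both Grin2d features where at least 3 arrays a group were measured; a filled square marks an adjusted p below 0.05. Only Grin2d feature 167 in PAG carrageenan, at -0.99, is marked.

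Across regions, PAG minus RVM was -0.27 for Grin2b (adjusted p = 0.787) and -0.11 for Grin2d feature 171 (adjusted p = 0.919) after carrageenan, and 0.01 and 0.10 after saline (both adjusted p = 0.995). The carrageenan effect in PAG minus that in RVM was -0.28 for Grin2b (95% interval -1.38 to 0.82; adjusted p = 0.815) and -0.21 for feature 171 (95% interval -1.28 to 0.87; adjusted p = 0.848). In each of these 3 comparisons 0% of 48 features were called, with 1, 4 and 3 at an unadjusted p under 0.05. Over all 6 groups a moderated F test gave an adjusted p = 0.748 for Grin2b and 0.613 for feature 171, with 0% of 21 features called (2 at an unadjusted p under 0.05). With quantile normalization the Grin2b values after saline and of the carrageenan effect turned to -0.44 and 0.25. Neither Grin2b nor feature 171 differed between PAG and RVM beyond the spread between arrays. PAG and LDH were compared only in the F test. The right LDH ratios of feature 171 lay below those of all 10 PAG arrays and those of Grin2b above all PAG saline ratios. These gaps rest on 3 right LDH arrays and were not tested on their own. How many of all features showed such gaps was not counted, so they are no result about these members.

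In order of their means, the groups ran for Grin2b from RVM saline (-0.46) through PAG saline (-0.45), left LDH (-0.38), PAG carrageenan (-0.25) and right LDH (-0.016) to RVM carrageenan (0.02). For Grin2d feature 171 the order was right LDH, left LDH, RVM saline, PAG saline, PAG carrageenan and RVM carrageenan. Feature 167 went from PAG carrageenan (-0.99) and RVM saline (-0.91) to PAG saline (-0.44) and left LDH (0.009). All 13 pairs of neighbours in these orders overlapped. The smallest p was that of feature 167 between PAG saline and left LDH (0.45 higher on the left; exact permutation p = 0.0397, adjusted p = 0.464 over the 13 pairs), so no neighbours differed beyond their spread. Neighbours were picked by the order of these same means and have the smallest gaps. The test therefore cannot decide whether groups further apart in the order differed.

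The mean of the 6 groups, each with equal weight, was -0.25 for Grin2b (95% interval -0.46 to -0.04; limma adjusted p = 0.0595) and -0.24 for Grin2d feature 171 (95% interval -0.50 to 0.03; adjusted p = 0.134). Of the 21 features with at least 3 measured arrays in every group, 28.6% were called in this comparison. Grin2b passed without RVM carrageenan array 1 (-0.33; adjusted p = 0.000414), without RVM saline array 4 (-0.27; adjusted p = 0.0466), without left LDH array 3 (-0.26; adjusted p = 0.0428) and by permutation of signs (adjusted p = 0.0194), where 7 of 16, 8 of 20, 10 of 20 and 10 of 21 features were called in all. Its call in that comparison therefore turned on single arrays, while its direction did not.

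The remaining pairs of member features were compared on the same arrays as well. Grin2b was above Grin3a feature 180 on 8 of 9 arrays, by 2.39 ± 1.95 (SD, n = 9; exact permutation p = 0.0117, adjusted p = 0.0526 over 9 pairs). Of these arrays 6 were from RVM, among them the 4 RVM saline arrays with the low Grin3a ratios given above. In RVM alone the difference was 2.92 ± 1.69 (SD, n = 6; exact permutation p = 0.0312, adjusted p = 0.187 over the RVM pairs). Grin2d feature 171 was above Grin3a feature 228 on 6 of 6 arrays, by 2.20 ± 1.60 (SD, n = 6; exact permutation p = 0.0312, adjusted p = 0.0702). Neither difference passed after adjustment over the pairs. That of Grin2b and Grin3a feature 180 was 2.70 without PAG carrageenan array 2 (exact permutation, adjusted p = 0.0195 over fewer pairs). Arrays 1 and 3 of that group did not measure feature 180. Leaving out either kept the difference at 2.39, and its adjusted p fell to 0.0351 only because fewer pairs were left to adjust over. Grin2b and Grin2d feature 171 did not differ over 25 arrays beyond their spread (-0.06 ± 0.72; permutation p = 0.696), but in PAG Grin2b was the lower of the pair on 10 of 10 arrays, by -0.36 ± 0.19 (SD, n = 10; exact permutation p = 0.00195). In LDH the same difference was 0.44 ± 0.71 (SD, n = 8; exact permutation p = 0.125).

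Of the other NMDA subunits, Grin2c, known mainly from adult cerebellum and thalamus, had ratios below 0 on 11 of the 12 arrays that measured it. In PAG carrageenan its mean was -1.74 ± 0.86 (SD, n = 5), below 0 on 5 of 5 arrays, and with 2 measured PAG saline arrays it entered no main comparison. Fitted on the PAG carrageenan arrays alone it was at -1.74 (95% interval -2.62 to -0.86; limma adjusted p = 0.136, with 0.645% of 155 features called). The other Grin3 subunit, Grin3b (feature 172), did not share the low ratios of Grin3a, with a RVM saline mean of -0.33 ± 0.38 (SD, n = 4). The difference between these genes was not tested. Grin3b was not called in the 9 comparisons it entered, among them PAG carrageenan minus saline at 0.37 (adjusted p = 0.831).

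The 4 features of Grin1, the subunit that every NMDA receptor contains, were measured on 3, 4, 7 and 13 arrays and did not enter any main comparison. Feature 175 was at -3.05 on average on 2 PAG carrageenan arrays and at -4.13 on 1 left LDH array, and feature 174 at -3.70 on 1 RVM saline array. The lowest Grin1 ratio was -4.258, that of feature 176 on left LDH array 1. Feature 173 lay between -1.453 and -0.537. Below 0 were 3 of 3 ratios of feature 173, 4 of 4 of feature 174 and 6 of 7 of feature 175, whereas feature 176, the most often measured, was below 0 on 6 of 13 arrays. The map of all NMDA subunit ratios shows the sparse Grin1 values beside the members. No feature was annotated to Grin2a, the subunit that largely replaces Grin2b in adult forebrain.

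**Figure D5:**
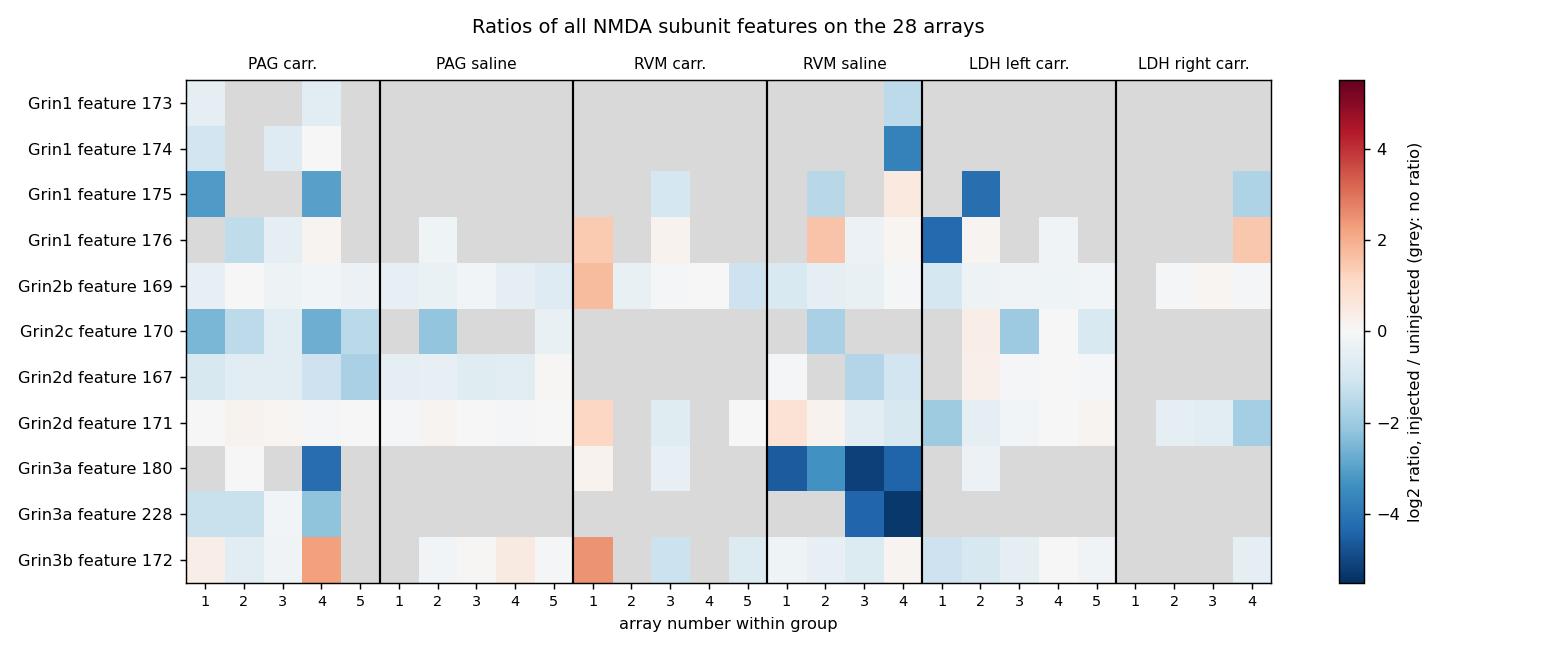
Log2 ratio of injected over uninjected (colour) of the 11 NMDA subunit features (rows) on the 28 arrays (columns, ordered by group and array number); grey marks a feature without a ratio. The lowest member ratios, down to -5.295, are those of the Grin3a features in RVM saline, and Grin2b feature 169 is the only row measured on 27 arrays.

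Among 22 features of other glutamate genes (12 of AMPA and kainate receptor subunits, 8 of metabotropic receptors and 2 of transporters) 9 entered a main comparison and 13 had too few measured arrays for any. Of the 9, only Grik3 feature 88 was called. Grik3 encodes a kainate receptor subunit and was lower in PAG carrageenan (-4.99; adjusted p = 0.0224), RVM carrageenan (-4.06; adjusted p = 0.0134), RVM saline (-2.57; adjusted p = 0.0373) and over the mean of 6 groups (-3.30; adjusted p = 6.36e-06). In PAG carrageenan against uninjected controls, 4 NMDA features were tested with 1 called lower, 3 AMPA and kainate features with 1 called lower, 4 metabotropic features with none called and 1 transporter with none called. Their medians were -0.10, -0.13, -0.09 and -0.53 (1 feature), beside a median of 0.19 over all 78 features, of which 32.1% were below 0. In RVM saline the 3 NMDA features tested had a median of -0.33, beside 0.19 over all 56, of which 37.5% were below 0. In RVM carrageenan the median of the group means was 0.14 and 0 of 3 means were below 0, beside 0.05 over all 56. Array 1 of that group held the highest ratios, at 1.760 for Grin2b, 1.147 for Grin2d feature 171 and 2.453 for Grin3b. The median over the group's measured arrays was below 0 for each of them, at -0.101, -0.034 and -0.743. The NMDA medians were -0.23 in PAG saline (beside 0.05 over all features), -0.43 in left LDH (beside 0.13) and -0.51 in right LDH (beside -0.085). In PAG carrageenan minus saline the NMDA median was 0.13, beside 0.14 over all 78.

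For each member feature measured on at least 12 arrays, the features with the most similar ratios across arrays were looked up, as a description. For Grin2b they were Grin3b feature 172 (r = 0.623 over 21 arrays), Gad2 feature 77 (r = 0.618 over 20) and Grin1 feature 176 (r = 0.529 over 13) among 102 candidates, with Spearman's rho of 0.203, -0.003 and 0.314. The rank correlations were much lower than r, and RVM carrageenan array 1 gave the highest ratio of both Grin2b and Grin3b. For Grin2d feature 167 they were Adora2a feature 24 (r = 0.582, rho = 0.741, 14 arrays), Gria3 feature 82 (r = 0.576, rho = 0.402, 17 arrays) and Adora3 feature 26 (r = 0.566, rho = 0.685, 12 arrays) among 75. For Grin2d feature 171 they were Grm4 feature 150 (r = 0.559, 15 arrays), Grm4 feature 149 (r = 0.509, 19 arrays) and a feature without a gene name, feature 4 (r = 0.491, 16 arrays). The 2 Grin2d features shared none of these, and Grin2b had r = -0.213 with feature 167 and 0.294 with feature 171; arrays share their depth and scaling across features, so these values describe these 28 arrays.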

How the data were processed

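The deposited table holds 1 log2 ratio per feature and array, made by the authors; it was used as deposited, with exact 0 taken as not measured. Per the labels' protocols, 5 µg of total RNA per sample, isolated with TRIzol, was reverse transcribed and labelled with a 3DNA kit, with 1 Alexa dye per channel and no dye swap; scanning, background correction and normalization are not given in the sources used here. Features were named from the platform annotation: 202 of 228 had 1 symbol, 26 had none, and 191 symbols matched a rat RefSeq gene table (assembly GRCr8). Features of 1 gene were kept apart.

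Comparisons (14) were fitted with limma 3.58.1 in R 4.3.3 (two-sided, moderated variance) on the arrays of the region concerned, or of all regions compared, for features with at least 3 measured arrays in each group of the fit. A group against its controls is its mean against 0. P-values were adjusted by Benjamini-Hochberg over all features of a comparison (threshold 0.05). Member features were compared within arrays by sign-flip permutation (exact up to 16 arrays, 1e+05 resamples above). The scripts were checked on simulated data.

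Named were all member features, all other NMDA subunit features, every called feature of the other glutamate lists and the 3 most alike features per member; Nts, Grm4 feature 150 and the low ranks in RVM saline were named after their values were seen. The members and lists were chosen with earlier results of these data known. Lists of glycine and D-serine genes, postsynaptic scaffold genes, neuron markers and glial and vascular markers had 0 features on the array. Alternatives covered scaling, the filter, zeros kept as 0, the arrays in the fit, robust moderation, permutation, a replicate block and each array left out. Animals of other ages at injection, or with adjuvant inflammation, were not analysed here.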

Additional observations from a re-analysis of the deposited data

Results flagged for a closer look

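In 2 of the 14 groups of 4 or more measured arrays that were examined, 1 array stood apart from the others of its group by Dixon's criterion. Chance alone gives this in about 1 in 20 groups. Grin2d feature 167 was at 0.051 on PAG saline array 5, while the other 4 arrays lay between -0.676 and -0.469; the gap was 0.715 of the group's range, just over the limit of 0.71. That array measured 33 features, the fewest in PAG. Grin2b feature 169 was at -0.986 on left LDH array 1, with the other 4 between -0.283 and -0.169 (gap 0.86 of the range). On the same array Grin2d feature 171 was at -1.944, the lowest of its ratios in the series.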

How the results depend on the processing

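Precision is limited by 3 to 5 arrays a group, by missing ratios and by scaling: on few measured features, quantile normalization moved more values than median centring, which turned none. Of 780 values with 1 array left out, 753 kept direction and side of the threshold, and of 459 under other alternatives 425 did; the rest follow, and the cause was not tested.

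Quantile normalization gave 0.021 for Grin2d feature 167 in PAG carrageenan minus saline, and for Grin2b -0.025 in RVM carrageenan, 0.019 in right LDH, -0.44 in PAG minus RVM after saline and 0.25 in the interaction. It called 0 members in PAG carrageenan (0 of 78 features in all) and 1 in PAG saline (4 of 78). Features measured on every array gave 2 calls in PAG carrageenan (9 of 22) and 1 in PAG saline (1 of 22). Exact permutation gave 0 in PAG carrageenan (0 of 78) and 1 over the mean of 6 groups (10 of 21), and the group's own arrays gave 0 in PAG carrageenan (1 of 155) and 1 in RVM saline (1 of 127). With zeros kept as 0, 1 member, Grin3a feature 180, was called in RVM carrageenan minus saline (4 of 212), RVM saline (9 of 212), PAG minus RVM after saline (4 of 225), the interaction (6 of 225) and the F test (1 of 225), and 2 over the mean of 6 groups (24 of 225). At least 2 measured arrays gave 1 call in RVM carrageenan minus saline (1 of 98) and 1 in RVM saline (4 of 98). The within-array difference of the Grin2d features was -0.16 with zeros kept as 0. Grin2b minus Grin2d feature 171 was -0.36 within PAG and 0.44 within LDH.

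Within a region, arrays of the same number in its 2 groups did not consistently deviate together (r above 0.1 in 2 of 5 PAG, 2 of 4 RVM and 0 of 3 LDH pairs). Only 3 of 10, 3 of 8 and 0 of 7 arrays correlated best with their own number. In PAG and RVM each such pair joined a carrageenan and a saline array. PAG and RVM arrays of the same number were not compared, so whether they deviated together was not tested. With the number as a replicate block, 0 members were called in PAG carrageenan (4 of 65 features in all; Grin2d feature 167 adjusted p = 0.0558), and Grin2d feature 171 in RVM carrageenan was -0.0072.

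With 1 array left out, Grin2d feature 171 ranged from -0.0023 to 0.57 in RVM carrageenan minus saline, -0.050 to 0.0065 in PAG saline, -0.42 to 0.15 in RVM saline, -0.16 to 0.41 in PAG minus RVM after saline and -0.51 to 0.053 in the interaction. Grin2b ranged from -0.41 to 0.31 in RVM carrageenan, -0.56 to 0.16 and -0.11 to 0.14 in PAG minus RVM after carrageenan and saline, and -0.57 to 0.15 in the interaction. Calls ranged from 0 to 1 in PAG saline and over the mean of 6 groups. Grin2b minus Grin2d feature 171 ranged from -0.13 to 0.0092, and Grin2b minus Grin3a feature 180 from 2.10 to 2.70. Pairs of features on 6 arrays, and right LDH groups cut below 3 measured arrays, could not be refitted. Leaving out arrays with fewer than 40 measured features, chosen after seeing the data, changed no call and turned no direction of a member. The features called in all went from 11 of 78 to 9 of 76 in PAG carrageenan. They went from 3 of 56 to 2 of 45 in RVM saline, and from 6 of 21 to 3 of 16 over the mean of 6 groups.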
